A study of Petunia x hybrida with 7 samples.

Results

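PhDEF regions that lay close together on the chromosomes of petunia were examined as clusters. A region was a stretch of the genome covered by at least 1 peak of PhDEF binding in the petals of wico, star or wild-type plants. It was counted as clustered when the nearest other region on the same scaffold was at most 10 kb away, measured between edges, and as lone otherwise. On the 7 long scaffolds, 1338 of 4999 regions were clustered, a share of 26.8% (exact 95% interval 25.5 to 28.0%), and 3661 were lone. Over all scaffolds the series held 5959 regions.

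PhDEF belongs to the B class of floral MADS-domain proteins, which give petals their identity and act with partners of the GLOBOSA type. MADS-domain dimers bind short A/T-rich elements called CArG boxes. In Arabidopsis and snapdragon such dimers are known to join into larger complexes that can hold a pair of CArG boxes with the DNA between them looped. Sites lying near each other are therefore a common subject in studies of these factors. No sequence of the assembly was used here, so CArG boxes and genes were not analysed.

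Chromatin immunoprecipitation followed by sequencing was performed on petals (tube and limb) of cultivar R27 at flower stage 8, with 2 libraries per genotype. Fixation used the cross-linker DSG (2.5 mM, 1 h) and formaldehyde (1%, 5 min) for every sample. Day length was 16 h, and temperatures were 22 °C by day and 18 °C by night. Whether a peak came from direct or indirect binding was not tested. The wico plants were chimeras with wild-type epidermis and phdef mutant mesophyll, star plants were chimeras with phdef mutant epidermis and wild-type mesophyll, and wild-type plants carried PhDEF in both layers. A single input library came from wild-type petals. Whole petals were used, so in a chimera the mutant layer was still in the sample and contributed chromatin. The layers are those the labels state, and no marker of a layer can be read from peak lists.

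Each genotype was represented by a single list in which the submitters had combined both replicates. After pieces of the same listed peak were joined, the lists held 3671 wico, 1750 star and 2650 wild-type peaks on the long scaffolds. With 1 list per genotype no difference between clustered and lone regions, or between genotypes, could be tested against replicate error. Exact intervals are given for shares and order-statistic intervals for medians. They cover counting error only, since regions share libraries and neighbouring regions are not independent. Read counts are not part of the lists, and the depth behind a peak, or behind its absence, is unknown.

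The clustered regions formed 600 clusters, and most clusters were pairs. A cluster was a chain of regions in which each was at most 10 kb from the next. Pairs numbered 484, or 80.7% of clusters. A further 100 clusters held 3 regions, 11 held 4, 4 held 5 and 1 held 6. The span of a cluster ran from 709 to 24031 bp with a median of 5095.5 bp, and the regions themselves covered 17.9% of the summed span. A cluster was thus mostly sequence between peaks.

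The 738 neighbour pairs inside clusters were concentrated at short distances. Their median distance was 3197 bp (95% interval 2696 to 3825 bp), the middle 50% lay between 1083 and 6520 bp, and the shortest distance was 49 bp. Neighbours up to 0.5 kb apart numbered 85, a density of 170.0 pairs per kb of distance. Between 0.5 and 1 kb the density was 180.0 pairs per kb. It was 114.0 from 1 to 2 kb, 63.7 from 2 to 5 kb and 51.6 from 5 to 10 kb. Past the limit the density went on falling without a step, with 39.9 pairs per kb from 10 to 20 kb and 25.0 from 20 to 50 kb. For comparison, the nearest region to a lone region was a median of 63.0 kb away.

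**Figure D1:**
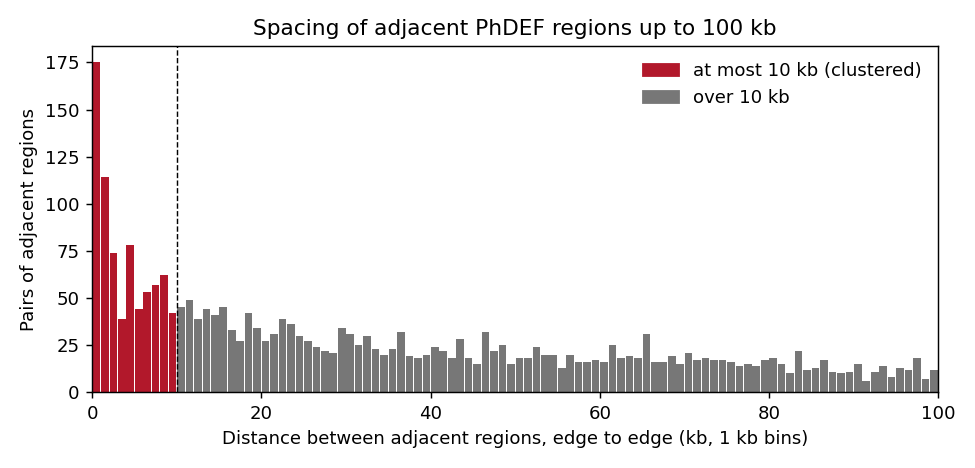
Number of pairs of adjacent regions (y axis) by the distance between their edges in 1 kb bins (x axis, kb) up to 100 kb, with pairs at most 10 kb apart in red and wider pairs in grey. The bin up to 1 kb held 175 pairs and the bin from 4 to 5 kb held 78, and the limit of 10 kb, shown as a dashed line, fell on no step in the counts.

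The limit separated pairs that were alike in distance. The 3 pairs just inside it were 9988, 9967 and 9884 bp apart, on HiC_scaffold_2, HiC_scaffold_2 and HiC_scaffold_4. The 3 pairs just outside it were 10002, 10017 and 10022 bp apart, all on HiC_scaffold_2. Of these 6 pairs, 1 inside and 1 outside joined regions found in wico only.

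Summits gave a similar spacing to edges. For neighbours that both held a peak of the same list, the median distance between summits was 3608 bp in wico (461 pairs, interval 3098 to 4534 bp), 3214 bp in star (97 pairs, 2104 to 5071 bp) and 3745.5 bp in the wild type (246 pairs, 2949 to 4861 bp). The intervals of the 3 lists overlapped. The smallest summit distances were 431, 463 and 497 bp in wico, star and wild type. Clustered regions had a median width of 424 bp (interval 411 to 433 bp), against 425 bp for lone regions (418 to 432 bp). Very few clustered regions, 10 of 1338 or 0.747%, held a peak that had been joined from pieces, against 52 of 3661 or 1.42% of lone regions.

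Pooling 3 lists brings regions closer by construction, so clustering was also counted inside each list. With neighbours from the same list only, 24.03% of wico peaks (interval 22.7 to 25.4%), 11.5% of star peaks (10.1 to 13.1%) and 18.5% of wild-type peaks (17.0 to 19.98%) had a neighbour within 10 kb. These shares followed the length of the lists. When each list was reduced to the 1750 strongest peaks, the number in star, the shares were 13.6% in wico (12.03 to 15.3%), 11.5% in star and 14.4% in the wild type (12.8 to 16.1%). The largest cluster inside a whole list had 5 wico, 3 star or 4 wild-type regions.

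Clusters were spread over all 7 long scaffolds but unevenly. HiC_scaffold_4 carried 146 clusters and 35.7% of its regions were clustered (interval 32.6 to 38.8%), whereas HiC_scaffold_7 carried 59 clusters with 19.6% of regions clustered (16.6 to 22.9%). The number of regions per Mb up to the last region listed was 8.28 on HiC_scaffold_4 and 4.08 on HiC_scaffold_7. The lowest density, 3.56 regions per Mb on HiC_scaffold_6, went with a clustered share of 20.9%. Clustered regions also lay in denser surroundings. Within 500 kb on either side, and leaving out the region's own cluster, a clustered region had a median of 9 other regions (quartiles 5 and 14.75) and a lone region had 6 (3 and 11). The clustered share was 15.6% among regions with at most 2 others in that window and 40.9% among those with 16 or more.

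Regions found only in star petals were less frequent among clustered regions than among lone ones. They made up 111 of 1338 clustered regions, or 8.30% (interval 6.87 to 9.90%), against 486 of 3661 lone regions, or 13.3% (12.2 to 14.4%). On each of the 7 long scaffolds the share was lower among clustered than among lone regions, with differences between -10.7 and -1.39 percentage points. Put the other way, 18.6% of star-only regions were clustered (15.6 to 22.0%), the lowest value of the 7 genotype patterns. The difference of -4.98 points was -2.87 without joining of rows, and it did not hold when only the more reproducible peaks were kept. With peaks at a global irreproducible discovery rate (IDR, an estimate of the share of irreproducible peaks at a given rank or better) of at most 0.02, the star-only share was 0.403 points higher among clustered regions. Here and wherever this stricter IDR is used, regions and patterns were formed anew from the peaks kept. A star-only region could then hold a less reproducible listed peak of another list. The difference was also turned in the densest surroundings, with 16 or more other regions within 500 kb. There star-only regions made up 8.58% of clustered and 7.53% of lone regions.

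Peaks of the wico list were more frequent in clustered regions. A wico peak was present in 1051 of 1338 clustered regions, or 78.6% (interval 76.3 to 80.7%), against 2616 of 3661 lone regions, or 71.5% (70.0 to 72.9%). The difference had the same direction on all 7 scaffolds, between 2.41 and 12.9 points. Pooled over the 7 long scaffolds it was 7.09 points, against 2.56 without joining of rows and 0.566 at the stricter IDR. In the densest surroundings wico peaks were present in 79.5% of both clustered and lone regions. A star peak was present in 33.7% of clustered regions (31.2 to 36.3%) and in 35.4% of lone regions (33.8 to 37.0%). A wild-type peak was present in 55.8% of clustered (53.1 to 58.5%) and 51.9% of lone regions (50.3 to 53.5%). For star and for the wild type the intervals overlapped.

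Regions held by all 3 lists made up 248 clustered regions, or 18.5% (interval 16.5 to 20.7%), and 565 lone regions, or 15.4% (14.3 to 16.6%). The difference was 3.10 points, with an interval of 0.722 to 5.58 from the counting error of both shares, and it was positive on 5 of 7 scaffolds. It was also compared across densities of the surroundings. Among regions with 3 to 5 others within 500 kb, 17.9% of clustered and 12.6% of lone regions were in all 3 lists. With 11 to 15 others the shares were 17.4% of clustered and 20.3% of lone regions, a difference of -2.96 points. In the other classes it was 3.55 points with at most 2 others, 3.26 with 6 to 10 and -0.873 with 16 or more. No intervals were computed for these differences, so a change of sign is not resolved. Over 8 alternative settings the difference between all clustered and all lone regions was positive and ran from 1.45 to 6.38 points. The highest value came with lists of equal length. The lowest, with an interval of -0.808 to 3.79, came without joining of rows. With a limit of 5 kb the difference was 2.68 points (-0.0421 to 5.56).

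The other patterns differed little. Regions of wico and wild type without star made up 24.1% of clustered regions (21.9 to 26.5%) and 21.2% of lone ones (19.9 to 22.6%). Regions in wico only were the most common kind in both, at 31.4% of clustered (28.9 to 34.0%) and 30.9% of lone regions (29.4 to 32.4%). Regions found only in the wild type made up 10.8% of clustered (9.15 to 12.5%) and 12.5% of lone regions (11.5 to 13.7%). The patterns of star with the wild type and of wico with star each stayed under 5% of either group, at 2.39% and 4.48% of clustered regions and 2.73% and 3.96% of lone regions.

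**Figure D2:**
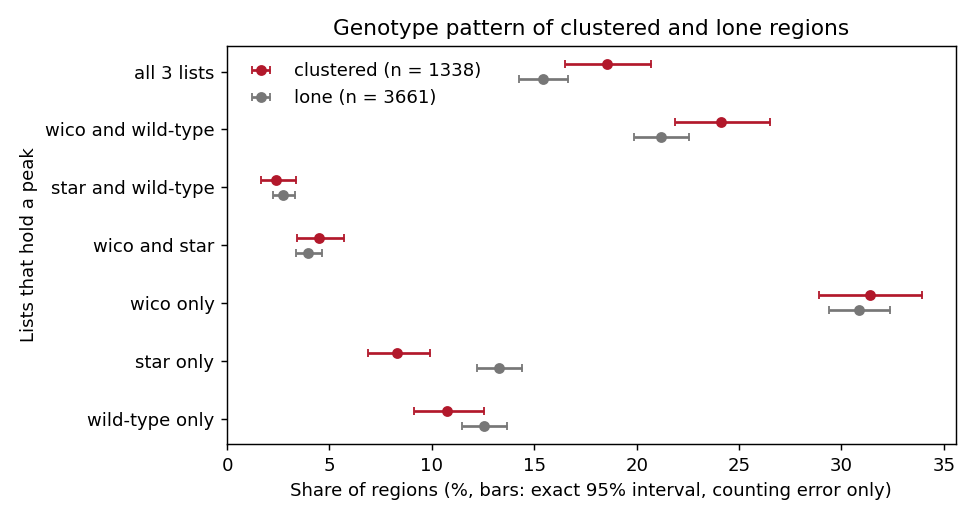
Share of clustered regions (red, n = 1338) and lone regions (grey, n = 3661) in each of the 7 genotype patterns, in percent on the x axis, with exact 95% intervals as bars. The bars of star-only regions lie apart, at 8.30% of clustered and 13.3% of lone regions, and those of wico-only regions overlap.

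Whether a region counts as clustered depends on how many regions of any list lie near it, and wico supplied the most. The nearness of regions of a single list was therefore compared across patterns. Another region with a wild-type peak lay within 10 kb of 20.7% of regions in all 3 lists (interval 17.9 to 23.6%), of 15.5% of wico-only regions (13.8 to 17.4%), of 10.9% of star-only regions (8.504 to 13.7%) and of 13.4% of wild-type-only regions (10.8 to 16.4%). Measured against wico peaks the corresponding shares were 25.8%, 22.3%, 13.9% and 19.6%. Star-only regions had the lowest share of these 4 patterns against both lists. Against star peaks the shares were 13.3%, 8.97%, 8.54% and 8.62%, and the last 3 were alike.

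Neighbours inside a cluster mostly differed in genotype pattern. Of the 738 clustered neighbour pairs, 195 had the same pattern, or 26.4% (interval 23.3 to 29.8%). Among 3148 pairs of adjacent lone regions, 684 had the same pattern, or 21.7% (20.3 to 23.2%). The share was higher in clustered pairs on 5 of 7 scaffolds. It was 34.1% of clustered and 23.8% of lone pairs on HiC_scaffold_2, but 15.8% of clustered and 22.9% of lone pairs on HiC_scaffold_6. At a global IDR of at most 0.02 the shares were 26.4% of clustered and 24.6% of lone pairs. At least 1 list was common to both members in 79.9% of clustered pairs (76.9 to 82.8%) and in 72.8% of lone pairs (71.2 to 74.3%). Both members held a wico peak in 464 of the 738 clustered and 1595 of the 3148 lone pairs. Wico peaks were more frequent in clustered regions, at 78.6%, than in lone regions, at 71.5%. A list held by more regions is shared by more pairs by construction. The higher share in clustered pairs therefore does not by itself show that neighbours were alike. An excess over such a base value was not tested.

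No trend with distance in the share of pairs with the same pattern was resolved inside the clusters. The same pattern was shared by 30.6% of neighbours up to 0.5 kb apart (interval 21.05 to 41.5%), by 21.9% of those 1 to 2 kb apart (14.7 to 30.6%) and by 27.1% of those 5 to 10 kb apart (21.8 to 33.0%). Pairs 10 to 20 kb apart, just past the limit, gave 21.6% (17.6 to 25.9%). All of these intervals overlapped.

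Neighbours of the same pattern were mostly of 3 kinds. Wico-only regions stood beside each other in 84 clustered pairs, regions of wico and wild type in 56, and regions in all 3 lists in 36. The most common pair of all, with 97 cases, joined a region of wico and wild type with a wico-only region. For a clustered region in all 3 lists, 26.3% of neighbours were also in all 3 (interval 21.2 to 31.9%). That pattern made up 18.6% of the regions in clustered pairs. In such shares of neighbours a pair alike at both ends was counted from each end, so their intervals are too narrow. In lone pairs the 2 values were 17.5% and 15.1%. Star-only regions stood beside each other in 9 clustered pairs, wild-type-only regions in 8 and regions of wico and star in 2. Of the neighbours of clustered star-only regions, 14.8% were star-only (8.98 to 22.3%), while that pattern made up 8.27% of regions in clustered pairs. In lone pairs these star-only values were 14.6% and 13.5%. The clustered values were 10.3% and 10.6% for wild-type-only regions, and 5.97% and 4.54% for regions of wico and star. Pairs of a wico-only and a star-only region numbered 33.

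Presence in a list was also compared with presence in the neighbour. A clustered region held a star peak in 39.8% of cases when its neighbour did (interval 35.4 to 44.2%). When its neighbour did not, the share was 30.7% (27.8 to 33.7%), a difference of 9.08 points. Each pair was counted from both ends, so these intervals are too narrow. In lone pairs that difference was 2.10 points. For wild-type peaks the difference was 9.28 points in clustered pairs, with 60.0% and 50.8%, and 3.31 points in lone pairs. For wico peaks it was 4.71 points in clustered pairs, with 79.8% and 75.1%, and 1.81 points in lone pairs. In the 175 pairs up to 1 kb apart the star difference was 18.8 points, against 6.02 points in the 563 wider pairs. The other lists went the other way, with 3.64 points in the closer and 4.85 in the wider pairs for wico, and 5.94 in the closer and 10.3 in the wider pairs for the wild type. The 2 star values rest on 28 and 71 pairs in which both regions held a star peak.

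**Figure D3:**
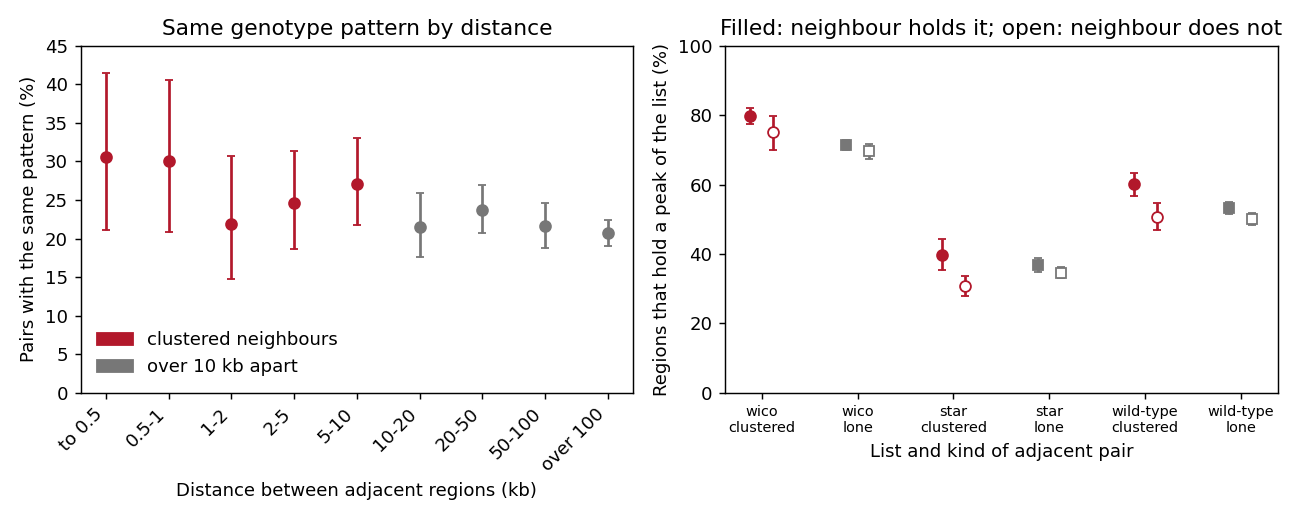
Left: pairs of adjacent regions with the same genotype pattern (y axis, percent) by distance class (x axis, kb), with clustered neighbours in red and pairs over 10 kb apart in grey; right: regions that hold a peak of a list (y axis, percent) when the neighbour holds it (filled) or does not (open), for clustered pairs (red circles) and lone pairs (grey squares). Bars are exact 95% intervals. On the right they are too narrow, because each pair was counted from both ends. The filled and open star points of clustered pairs lie at 39.8% and 30.7%.

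At the level of whole clusters, 272 of 600 clusters, or 45.3% (interval 41.3 to 49.4%), held peaks of all 3 lists in some region. In 61 of them no single region was in all 3. A wico peak was present in 572 clusters, a star peak in 341 and a wild-type peak in 486. Clusters made only of wico-only regions numbered 61, against 7 of star-only and 5 of wild-type-only regions. In 77 clusters, or 12.8% (10.3 to 15.8%), there was both a region with wico but no star peak and a region with star but no wico peak, not always as neighbours.

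Some wild-type regions in clusters that lacked a chimera's peak had such a peak elsewhere in the cluster. A wico peak lay in the same region for 571 of 747 clustered wild-type regions, or 76.4% (73.2 to 79.4%), against 70.6% of 1900 lone wild-type regions (68.5 to 72.6%). Of the 176 without it, 146 had a wico region elsewhere in the cluster, so that 96.0% of clustered wild-type regions had wico binding in their cluster. A star peak lay in the same region for 37.5% of clustered wild-type regions (34.0 to 41.1%) and 35% of lone ones (32.9 to 37.2%). Of the 467 without it, 184 had a star region elsewhere in the cluster, which brought the share to 62.1%. Counting any region of a cluster raises a share by construction. Of the clustered wild-type regions without the chimera's peak, 83.0% had a wico region and 39.4% a star region elsewhere in the cluster. For scale, 78.6% of all clustered regions held a wico peak and 33.7% a star peak. Whether the former shares exceed these was not tested.

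The wico share of clustered wild-type regions was set beside their strength. Wild-type regions were split by signal into 3 classes of equal number. In the weakest class, wico peaks were present in 52.7% of clustered (46.2 to 59.2%) and 41.0% of lone regions (37.2 to 44.9%). In the middle class the shares were 78.1% of clustered and 78.4% of lone regions, and in the strongest class 96.2% of clustered and 93.4% of lone regions. Star peaks in the weakest class were present in 19.4% of clustered (14.6 to 25.0%) and 16.1% of lone regions (13.3 to 19.2%). The difference between classes was not tested.

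Signal rank differed between clustered and lone regions in the star list. Peaks were ranked inside their own list by the signal summed over both replicates, with 100 as the percentile of the strongest. The median percentile in star was 57.1 for 451 clustered regions (interval 52.7 to 60.7) and 48.0 for 1296 lone regions (45.3 to 50.3). The difference of 9.08 had the same direction on 7 of 7 scaffolds, between 3.76 and 15.4. By the single replicate columns, which add up to the ranked signal, it was 6.03 (interval 1.76 to 12.3) and 5.58 (-0.458 to 11.4). Among peaks at a global IDR of at most 0.02 the difference was 3.49 (interval -1.11 to 7.43). Percentiles were still those of the whole list, so these peaks span a narrower range of them. The value is therefore not comparable with 9.08. The star difference also varied with the surroundings. With at most 2 other regions within 500 kb the star medians were 47.6 for clustered and 43.4 for lone regions, with 3 to 5 others 57.2 and 43.3, and with 16 or more others 59.6 and 57.5. In signal units the star medians were 10.0 for clustered and 9.45 for lone regions, while the middle 50% of clustered regions ran from 8.61 to 12.2.

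In the other lists the clustered and lone medians were closer at the limit of 10 kb. The wico median was 51.2 in 1051 clustered regions (48.9 to 54.7) and 50.1 in 2616 lone regions (48.2 to 52.2). The wild-type median was 52.4 in 747 clustered regions (49.3 to 56.0) and 49.3 in 1900 lone regions (47.2 to 51.5). The intervals overlapped in both lists. Other settings moved these values. At a global IDR of at most 0.02 the difference was 3.45 in wico (0.441 to 6.81), beside 3.49 in star, and 2.01 in the wild type (-1.65 to 5.51). Percentiles were again those of the whole list, and the share of peaks kept differs between lists. These sizes are therefore not comparable between lists. With a limit of 20 kb the difference was 4.56 in wico (0.833 to 7.92), 8.97 in star (4.44 to 13.9) and 7.21 in the wild type (3.65 to 11.2). With a limit of 5 kb the wico value was -0.919. A rank difference particular to star is therefore not shown. The maximum summed signals were 34.5 for clustered and 50.6 for lone regions in wico, 24.9 and 29.0 in star, and 27.6 and 42.1 in the wild type. A maximum rises with the number of regions, and lone regions were more numerous in each list. The upper quartiles of signal were higher in clustered regions. They were 13.6 for clustered and 13.1 for lone regions in wico, 12.2 and 11.5 in star, and 12.9 and 12.7 in the wild type. Each list was also split by signal into 5 classes of equal number. In star the clustered share was 18.6% in the weakest class (14.6 to 23.0%) and 29.5% in the strongest (24.8 to 34.6%). The star classes between them had 26.0%, 24.4% and 30.7%, so the rise was not even. The weakest and strongest classes had 26.3% and 31.4% in wico, and 23.6% and 29.7% in the wild type.

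**Figure D4:**
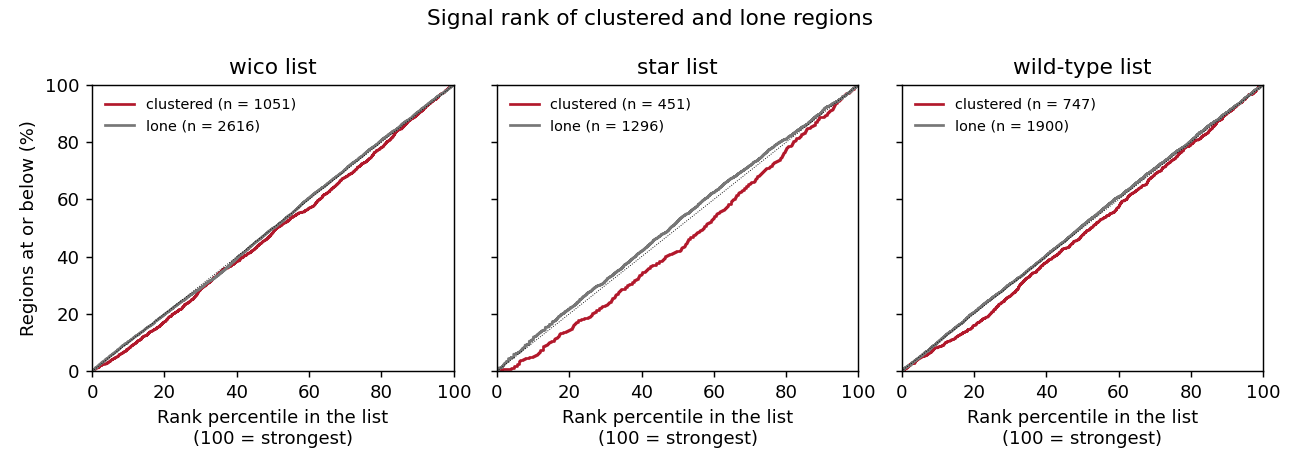
Cumulative share of regions (y axis, percent) by rank percentile in the wico, star and wild-type lists (x axis, 100 for the strongest peak), with clustered regions in red, lone regions in grey and the dotted diagonal for even ranks. The clustered curve lies below the lone curve in star, where the medians are 57.1 and 48.0, and close to it in wico and the wild type.

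The ranks of neighbours in a cluster were at most weakly related. Across neighbour pairs that both held a peak of the list, Spearman's rho between the percentiles was 0.0940 in wico (464 pairs), 0.246 in star (99 pairs) and 0.0486 in the wild type (248 pairs). Among adjacent lone regions it was 0.0774 in wico (1595 pairs), 0.129 in star (409 pairs) and -0.0577 in the wild type (869 pairs). The values for clustered neighbours moved with the setting. At a global IDR of at most 0.02 they were -0.0244 in wico, 0.364 in star and -0.0628 in the wild type. By single replicate columns the star value was 0.321 for the first and 0.0631 for the second, this last value with an interval of -0.136 to 0.257. The pairs of a list come from the same libraries, and all had passed the same reproducibility filter. The median difference in percentile between clustered neighbours was 27.2 in wico (interval 25.1 to 30.2), 19.5 in star (13.2 to 25.9) and 27.6 in the wild type (24.6 to 30.8). Between adjacent lone regions it was 27.7, 28.1 and 31.7 in wico, star and wild type. Star was the list in which clustered neighbours were closest in rank, with an interval that overlapped the 24.7 to 31.0 of lone pairs.

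Median ranks in wico and in the wild type were not higher in larger clusters. The median wico percentile was 51.5 in pairs, 50.8 in clusters of 3 and 48.6 in clusters of 4 or more, and the wild-type medians were 54.4, 50.0 and 38.1. The wild-type value for clusters of 4 or more rests on 33 regions and has an interval of 28.0 to 65.0. In star the medians were 55.3, 58.7 and 62.7, the last from 22 regions with an interval of 32.8 to 78.3. The share of regions in all 3 lists was 18.9% in pairs, 18.3% in clusters of 3 and 14.3% in larger ones (interval 7.07 to 24.7%).

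The largest cluster held 6 regions over 23844 bp, at positions 110413529 to 110437372 of HiC_scaffold_4. Its 5 wico, 2 star and 3 wild-type peaks formed 5 different patterns. The only region in all 3 lists, at 110422891 to 110423288, had percentiles of 85.6 in wico and 79.9 in star but 32.7 in the wild type. The strongest star peak of the cluster, with a percentile of 86.8, lay in a region of wico and star at 110432980 to 110433601. The last 4 regions were separated by 957, 589 and 1305 bp.

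The 4 clusters of 5 regions held between 2 and 4 patterns each. In the cluster at 97332063 to 97350217 of HiC_scaffold_4, no region was in all 3 lists, and a region of star and wild type with percentiles of 84.2 and 30.4 stood 446 bp from a wico-only region with a percentile of 25.9. The cluster at 135223314 to 135244382 of HiC_scaffold_6 held a region in all 3 lists with percentiles of 73.0 in wico, 76.2 in star and 65.0 in the wild type. The cluster at 100170162 to 100192208 of HiC_scaffold_1 held 3 wico-only regions and 2 star-only regions and no wild-type peak. There the star-only regions lay at one end and the wico-only regions at the other, 1814 bp apart, with percentiles between 5.62 and 75.3. The cluster at 122079424 to 122103454 of HiC_scaffold_1 was the longest, at 24031 bp, and its strongest peak was a wild-type one with a percentile of 84.8, in a region that also held a wico peak.

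Clusters of 3 regions could be very compact. The shortest spanned 1947 bp, at 68585905 to 68587851 of HiC_scaffold_4, and consisted of 3 wico-only regions separated by 368 and 203 bp. Their percentiles in wico were 37.5, 29.4 and 30.0, and their widths 387, 581 and 408 bp. The next, 2135 bp at 171973470 to 171975604 of HiC_scaffold_2, held wico peaks in each of its 3 regions with percentiles between 22.2 and 41.2. A cluster of 2660 bp at 10759710 to 10762369 of HiC_scaffold_7 joined 3 different patterns. Its region of star and wild type, at 10759710 to 10760141, had the highest percentile of any clustered region with that pattern, 93.1 in star and 74.4 in the wild type. Its nearest wico peak lay in the third region, with a percentile of 28.2.

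Both members were in all 3 lists in 36 of 738 clustered neighbour pairs and in 83 of 3148 lone pairs. Among the 600 clusters, 26, or 4.33% (interval 2.85 to 6.29%), consisted wholly of regions in all 3 lists. The 3 described here, all pairs, had the highest values for the lowest percentile of any of their peaks in any list. On HiC_scaffold_3, regions at 8794460 to 8794968 and 8804831 to 8805592 were 9862 bp apart, and their percentiles were 94.4 and 98.8 in wico, 97.4 and 94.7 in star, and 97.4 and 98.8 in the wild type. Also on HiC_scaffold_3, regions at 130966143 to 130966595 and 130967426 to 130968018 were 830 bp apart. The left one had summed signals of 28.1 in wico, 21.4 in star and 24.9 in the wild type, and the right one 17.8, 15.8 and 16.0, so the left one was the stronger in each list. On HiC_scaffold_2, regions at 144232996 to 144233532 and 144233696 to 144234135 were 163 bp apart. There the left region was the stronger in wico, with 22.9 against 16.4 for the right one, and the right region was the stronger in star, with 17.6 against 14.2, and in the wild type, with 21.3 against 15.5.

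**Figure D5:**
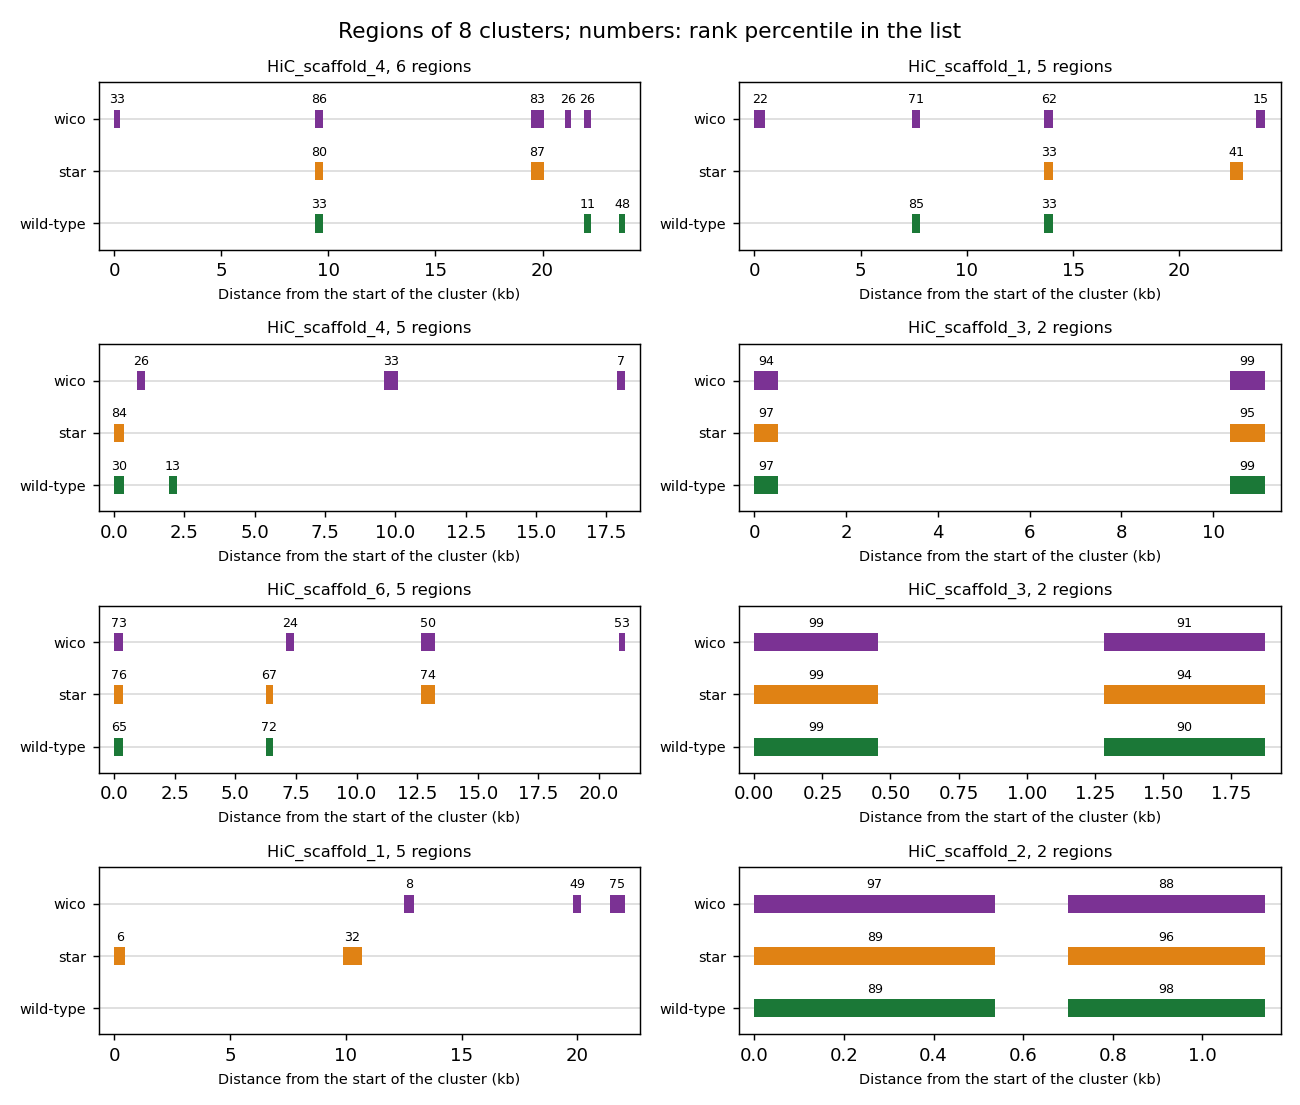
Regions of 8 clusters drawn to scale as distance from the start of the cluster (x axis, kb) in the wico, star and wild-type lists (rows), with the rank percentile of each peak above it. The left column and the top right panel show the 5 clusters with the most regions, where most regions are missing from at least 1 list, and the other panels show 3 pairs in which both regions are in all 3 lists with percentiles of at least 88.1.

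The strongest clustered wico region, at 134925731 to 134926566 of HiC_scaffold_1, had replicate signals of 18.1 and 16.5 in wico and ranked 19 in that list. It was in all 3 lists and belonged to a cluster of 4. The strongest clustered star region, at 167150612 to 167151232 of HiC_scaffold_2, ranked 13 in star with replicate signals of 11.9 and 12.95. The strongest clustered wild-type region, at 21417959 to 21418717 of HiC_scaffold_1, ranked 20 with replicate signals of 11.8 and 15.8. It stood 233 bp from its neighbour, and its percentile was 99.2 in wico but 85.5 in star.

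Among clustered regions missing from at least 1 list, the strongest of a pattern was the one with the highest percentile in any list. Such a maximum depends on the number of regions, which ran from 32 of star and wild type to 420 of wico only. These values therefore do not compare strength between patterns. The strongest of wico and wild type, at 23564994 to 23565417 of HiC_scaffold_2, had percentiles of 99.1 in wico and 95.8 in the wild type and no star peak. Its wild-type replicate signals were unequal, at 5.26 and 14.0. The strongest of wico and star, at 106171618 to 106172083 of HiC_scaffold_4, had percentiles of 59.0 in wico and 96.5 in star. The strongest wico-only region, at 51246766 to 51247505 of HiC_scaffold_5, had a percentile of 97.5 with replicate signals of 14.6 and 10.0. The strongest star-only region, at 143339747 to 143340024 of HiC_scaffold_2, reached 83.5, and the strongest wild-type-only region, at 21513476 to 21513718 of HiC_scaffold_1, reached 86.5.

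Of the 33 pairs in which a wico-only and a star-only region were neighbours, the 3 with the strongest weaker member held modest peaks. On HiC_scaffold_5, a wico-only region at 17213335 to 17213672 and a star-only region at 17216435 to 17216889 were 2762 bp apart, with percentiles of 36.0 and 33.7. On HiC_scaffold_4, a wico-only region at 86683164 to 86683546 and a star-only region at 86681242 to 86681602 were 1561 bp apart, with percentiles of 33.4 and 73.9. On HiC_scaffold_3, a wico-only region at 72185788 to 72186149 and a star-only region at 72182871 to 72183606 were 2181 bp apart, with percentiles of 33.0 and 64.7. The wico-only member was thus below the middle of its list in all 3 pairs.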

How the data were processed

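The deposited files were 3 headerless peak lists with 21 columns in the layout of the idr program. Each was assigned to a genotype by the 2 library numbers in its name. Per the submitters' processing notes, Bowtie2 2.4.2, MACS2 and bedtools were used. Neither their roles, nor the genome build, nor the handling of input is given in the sources used here. The signal deposited by the authors is the sum of 2 replicate signals in every row, within 2e-04, and what it is relative to is not stated. Score and −log10 of the global IDR, as deposited, are capped at 1000 and 5, and each list ends at a global IDR of 0.1. The replicate columns are not numbered in the lists, and 7 columns per list with positions of single replicates or repeats were not used.

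Rows of a list with identical score, signals and IDR at most 5 kb apart were joined into 1 peak. This left 4242 of 4276 wico rows, 2169 of 2216 star rows and 3088 of 3134 wild-type rows. Peaks sharing at least 1 bp across lists were merged into regions. A region present several times in a list took its strongest peak. Percentiles refer to the whole joined list. Positions are counted from 1. The calculations used scipy 1.17.1 and pandas 2.3.3 under Python 3.11.15. On simulated data, 4495 of 4495 planted regions and 1134 of 1134 clusters were found, and bedtools 2.31.1 gave the same 4999 regions and 1338 clustered regions.

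The members, comparisons and named regions were chosen with earlier results of these data known. Named regions follow a rule: the 5 clusters with the most regions, the 3 shortest with at least 3 regions, the 3 strongest wholly in all 3 lists, the strongest clustered region of each list and pattern, 3 pairs of wico-only and star-only neighbours, and 3 pairs on each side of the limit. Values within scaffolds, by density of surroundings, against a single list, for each list alone and for neighbours over 1 kb apart were added after seeing the data.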

Additional observations from a re-analysis of the deposited data

Results flagged for a closer look

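Clustering was also present in data outside the comparisons, on the scaffolds other than the 7 long ones. There 130 of 960 regions, or 13.5% (exact 95% interval 11.4 to 15.9%), had another region within 10 kb, in 62 clusters on 59 scaffolds. Of the 810 such scaffolds with a region, 700 held a single one, which cannot be clustered by this rule. The median distance between neighbours was 2122 bp and the largest cluster had 3 regions. Regions in all 3 lists made up 19.2% of clustered (12.8 to 27.1%) and 11.9% of other regions there, and star-only regions 11.5% of clustered and 23.6% of other regions.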

How the results depend on the processing

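The number of clusters and the share of clustered regions depend on the limit and on list length. The clustered share was 18.3% with a limit of 5 kb, 38.9% with 20 kb, 28.9% without joining rows, 24.2% with regions merged across gaps of at most 500 bp, 20.3% at a global IDR of at most 0.02, 19.4% with lists of equal length, 24.6% on all scaffolds, 24.9% without the wild-type list and 20.2% without the wico list. The number of clusters was 278 at the stricter IDR, 294 with lists of equal length and 322 without the wico list. The median distance between clustered neighbours was 1513.5 bp with 5 kb, 6835 bp with 20 kb, 2640.5 bp without joining, 4198 bp with merging across gaps and 4126 bp with lists of equal length. A shorter limit lowers the clustered share and the median distance by construction, and a longer limit raises them. The median distance stayed inside the interval of its main value at the stricter IDR (3575.5 bp) and without the wico list (3553 bp). Why values moved under settings other than the limit was not examined. Clustered pairs with the same pattern made up 31.7% without joining and 22.2% with lists of equal length. With 2 lists there are fewer patterns by construction, and the share was 51.5% without wild type, 44.0% without wico and 45.3% without star. It exceeded that of lone pairs in each of 11 planned settings, by 1.80 to 9.79 points. Without joining, rho between star neighbours was 0.466, since pieces of the same peak carry identical values. At the stricter IDR, rho between wico neighbours was -0.0244, turning its sign, and the star rank difference was 3.49, on percentiles of the whole list. With lists of equal length the difference in the share found in all 3 lists was 6.38 points. The cause of these last shifts was not tested. The other 99 alternative values stayed inside the interval of the main value, or within 1.5 times it for counts. No paired analysis was possible because every genotype has a single list, made from its 2 libraries together. For the same reason leaving out a replicate was not run. Absence from a list cannot be told from a peak under the threshold, since depth is unknown.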

Other observations

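The distances between clustered neighbours did not fall evenly. Pairs 3 to 4 kb apart numbered 39, pairs 4 to 5 kb apart 78, and pairs 5 to 6 kb apart 44. This step was noticed in the counts and was not tested. Inside single lists the 3 counts were 28, 45 and 28 in wico, 3, 4 and 9 in star, and 13, 32 and 12 in the wild type. These lists share many regions and are not independent. At a global IDR of at most 0.02 the pooled counts were 17, 31 and 20. The 78 pairs were spread over all 7 scaffolds, with 8 to 17 on each. On scaffolds 1 to 3 the counts were 23, 31 and 21, and on scaffolds 4 to 7 they were 16, 47 and 23. The same genotype pattern was found in 26.9% of these 78 pairs (exact 95% interval 17.5 to 38.2%), which is close to the 26.4% of all clustered pairs.

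In clusters with at least 2 regions of a list, the strongest of them was in all 3 lists in 37.4% of 406 wico clusters, 63.7% of 102 star clusters and 51.5% of 229 wild-type clusters. For the other regions of these clusters the shares were 12.9%, 43.6% and 20.7%. The members were ordered by signal here, so the values describe the clusters and test nothing.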
